A study of Homo sapiens with 13 samples.

Results

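The 7 human genes that encode NMDA receptor subunits (GRIN1, GRIN2A, GRIN2B, GRIN2C, GRIN2D, GRIN3A and GRIN3B) were followed by RNA sequencing while embryonic stem cells were turned into neurons and exposed to the growth factor FGF2. They were picked by gene symbol. All 7 were present among 60500 genes listed for the doxycycline libraries (41723 with at least 1 read) and among 60554 listed for the FGF2 libraries (38116 with at least 1 read).

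The NMDA receptor is a glutamate-gated cation channel that admits calcium and is blocked by magnesium until the membrane depolarises, a property on which synaptic plasticity depends. Every receptor contains GRIN1, which binds the co-agonist glycine or D-serine. GRIN2A to GRIN2D bind glutamate and set the channel's kinetics, and GRIN3A and GRIN3B bind glycine and lower calcium permeability. In the forebrain GRIN2B and GRIN2D are prominent before birth, GRIN2A increases with maturation, and GRIN3A peaks during early synapse formation.

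All 13 libraries came from H9 human embryonic stem cells with a NEUROG2 gene under doxycycline control. NEUROG2 is a proneural transcription factor, and the labels describe the resulting cells as post-mitotic excitatory neurons. In the doxycycline set, 1 library each was made at day 0, at day 5 with or without doxycycline, and at day 11 with or without doxycycline. In the FGF2 set every culture received doxycycline for 6 days, and each of 4 groups had 2 libraries. Day 6 cultures grew with doxycycline alone (day 6 control) or with FGF2 on days 1 to 6 as well (early FGF2). Day 12 cultures spent 6 further days in the neural medium 3N after doxycycline was withdrawn, without FGF2 (day 12 control) or with it (late FGF2). Doxycycline was used at 1 µg/ml and FGF2, per the labels, at 20 µg/ml, and the stem cell medium E8 was replaced by 3N after 2 days. The titles name the cells hES-N1 in the doxycycline set, and hES-N2G1 and hES-N2G2 for the 2 libraries of each FGF2-set group. The last digit of these names is used here as the replicate number. The titles do not say whether the 2 are cultures or clones, so p-values here measure the spread between these libraries, which may be technical. No library received doxycycline without carrying the inducible gene.

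Each doxycycline library held 28443657 to 47159475 counted reads and each FGF2-set library 22802501 to 30014661. NEUROG2 itself stood at 0.456, 1.34 and 6.26 CPM in the uninduced libraries of days 0, 5 and 11 and at 1560 and 1020 CPM with doxycycline on days 5 and 11. It stood at 7630 ± 116 CPM in the day 6 controls and 52.0 ± 3.76 CPM in the day 12 controls (SD, n = 2). CPM are counts per 1000000 reads after TMM scaling, done separately in each set, and values are not compared between the sets. Summed over 10 pan-neuronal markers, all detected in every group, the level was 61.5 to 286 CPM in uninduced cells, 12800 and 15400 CPM with doxycycline on days 5 and 11, 8920 to 9210 CPM in day 6 controls and 16600 CPM in both day 12 controls. Between these controls 6 of the 10 rose by edgeR and 2 fell, TUBB3 from 266 to 130 CPM and ELAVL3 from 974 to 472 CPM. The 2 early FGF2 libraries stood further apart than any other pair, with a chi-square of 21.4 per degree of freedom against 3.03 to 3.46 elsewhere.

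In the controls of the FGF2 set, GRIN2D was the most abundant subunit mRNA per length on both day 6 and day 12. GRIN3A, GRIN2A and GRIN1 gained ground between these days. Levels of different genes were compared as CPM per kb of annotated exon. In day 6 controls GRIN2D stood at 21.0 CPM per kb, from 19.3 to 22.6 in the 2 libraries, and GRIN2A followed at 0.606. GRIN1, GRIN3A, GRIN3B and GRIN2C came next, between 0.0551 and 0.128 CPM per kb, with library ranges that overlapped, and GRIN2B was last at 0.000694. In day 12 controls the order was GRIN2D at 8.27 CPM per kb, GRIN3A at 3.97 (3.48 to 4.46), GRIN2A at 3.01 (2.68 to 3.34) and GRIN1 at 0.744 (0.609 to 0.88). GRIN3B at 0.0946 lay below them, and GRIN2C and GRIN2B, at 0.0441 and 0.0355, had overlapping library ranges. The plot of levels by library shows all 7 genes side by side.

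**Figure D1:**
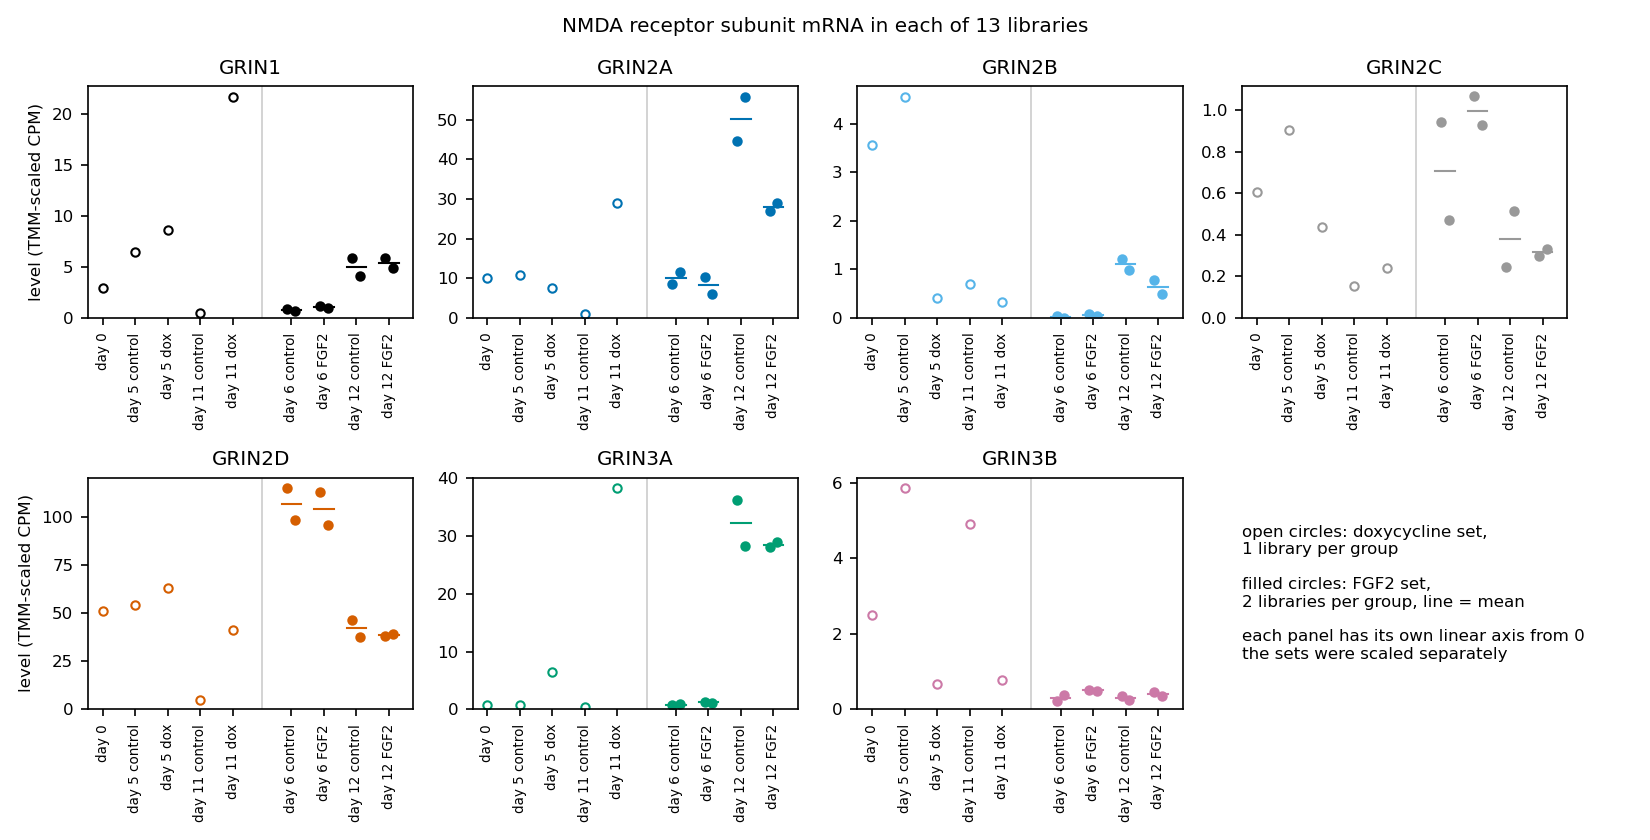
Levels of the 7 subunit mRNAs in each library, in TMM-scaled CPM on linear axes that start at 0 and differ between panels; open circles are the 5 doxycycline-set libraries, filled circles the 8 FGF2-set libraries with a line at the mean of 2. GRIN3A lies at 0.774 and 0.858 CPM in the day 6 controls and at 36.2 and 28.3 CPM in the day 12 controls, while GRIN2D goes from 115 and 98.3 CPM to 46.7 and 37.5 CPM.

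Between day 6 and day 12 of the controls GRIN3A, GRIN1 and GRIN2A rose, GRIN2D fell, and GRIN2C and GRIN3B did not pass the test. Across all 20142 genes tested 64.0% passed, 31.7% higher and 32.3% lower, so a call alone does not set the subunits apart. All 7 passed the filter on low counts, GRIN2B only through day 12, where it is higher, so GRIN2B is described by its counts. GRIN3B passed only through libraries with FGF2, which had 11 to 15 reads each against 5 to 9 in controls. Its changes with FGF2 are therefore given as counts. Time and the withdrawal of doxycycline change together in this comparison and cannot be told apart. Nor can bulk RNA tell fewer cells of a type from less RNA per cell.

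GRIN1 (chr9:137138390-137168762, plus strand, GRCh38), the obligatory subunit, had 0.860 and 0.687 CPM in the 2 day 6 controls, against 5.92 and 4.10 CPM in the 2 day 12 controls. Both day 12 libraries lay above both day 6 libraries. The rise was 2.69 ± 0.28 on the log2 scale (SE), or 6.46-fold, with an adjusted p of 5.8e-07 by edgeR.

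GRIN2A (chr16:9753404-10182754, minus strand), the glutamate-binding subunit associated with maturation, was measured at 8.64 and 11.6 CPM on day 6, against 44.7 and 55.8 CPM on day 12. The groups did not overlap, and the log2 change was 2.31 ± 0.19 (4.97-fold, adjusted p = 3.5e-08). GRIN2B (chr12:13437942-13981957, minus strand), the subunit prominent before birth, was close to absent on day 6, with 1 read in replicate 1 and 0 in replicate 2. On day 12 it had 30 and 23 reads, or 1.22 and 0.982 CPM. With 53 reads against 1, the ratio of scaled counts was 51.3, with a 95% counting interval of 8.82 to 2060. Even on day 12, GRIN2B mRNA per length was 0.0355 CPM per kb against 3.01 for GRIN2A.

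GRIN2D (chr19:48394875-48444931, plus strand), the glutamate-binding subunit with slow deactivation, went the other way. Its 2 levels of 115 and 98.3 CPM on day 6 compare with 46.7 and 37.5 CPM on day 12, with no overlap. It fell by 1.34 ± 0.11 on the log2 scale, 2.53-fold, with an adjusted p of 6.4e-08. GRIN2C (chr17:74842023-74861504, minus strand), best known from the cerebellum, stayed at 0.243 to 0.945 CPM in these 4 libraries, and its log2 change of -0.91 (95% interval -2.02 to 0.20) did not pass.

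GRIN3A (chr9:101569353-101738580, minus strand), the glycine-binding subunit that limits calcium entry, was barely present on day 6 (0.774 and 0.858 CPM), whereas day 12 libraries had 36.2 and 28.3 CPM. Its log2 change of 5.30 ± 0.19 was 39.3-fold, with a 95% interval of 29.6 to 52.2 and an adjusted p of 2.3e-12. GRIN3B (chr19:1000419-1009732, plus strand), its paralog, stayed between 0.215 and 0.386 CPM in the 4 libraries, with a log2 change of 0.05 (95% interval -1.20 to 1.30). The 2 GRIN3 genes thus had a called rise for GRIN3A and none for GRIN3B. The difference between them was not tested.

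Markers of other cell states moved over the same interval. The sum of 6 markers of dividing cells went from 378 to 451 CPM on day 6 to 9.61 to 10.8 CPM on day 12. The 6 neural progenitor markers went from 1550 to between 871 and 932 CPM, a sum led by NES, with 4 members lower and 2 higher. VIM was among the latter, from 52.6 to 344 CPM. SOX1 was the other, from 0.150 to 2.21 CPM. The 6 pluripotency markers went from 267 to 269 CPM to 137 to 149 CPM. The 6 astroglia markers summed to 11.3 to 14.8 and then 1.62 to 1.96 CPM, and the 7 oligodendrocyte lineage markers to 60.1 to 61.5 and then 39.4 to 47.1 CPM, with SOX10 at 0 throughout. TDGF1 was at 0 in both control groups and NANOG at 0 on day 6. Their part in the subunit changes was not tested.

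**Figure D2:**
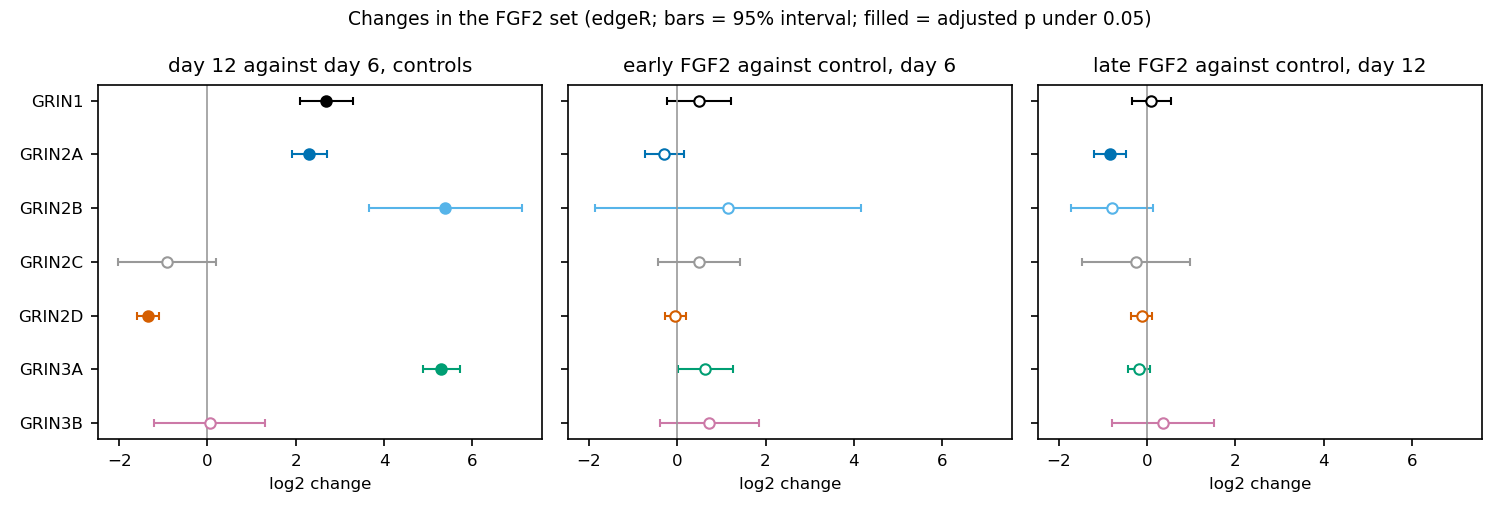
Log2 changes of the 7 subunits in the FGF2 set on a shared axis, for day 12 against day 6 in controls, early FGF2 and late FGF2; bars are 95% intervals from edgeR, and filled points passed at an adjusted p under 0.05. The first panel has 5 filled points, of which GRIN2B rests on 53 reads against 1, the second has 0, and the third has 1, GRIN2A at -0.84.

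The subunit mix therefore shifted. Expressed as a share of the 7 subunits per kb, GRIN2D made up 95.4 ± 0.99% in day 6 controls and 51.0 ± 2.55% in day 12 controls (SD, n = 2). GRIN3A went from 0.462 ± 0.0806% to 24.4 ± 1.77%, GRIN2A from 2.81 ± 0.856% to 18.9 ± 4.88%, and GRIN1 from 0.522 ± 0.0297% to 4.57 ± 0.707%. The summed level of all 7 was 21.9 ± 2.19 and 16.2 ± 1.70 CPM per kb. Per length, the GRIN2 genes together exceeded GRIN1 190 ± 10.6 times on day 6 and 15.6 ± 2.97 times on day 12, although the protein complex needs GRIN1. The ratio of GRIN2D to GRIN2A went from 35.8 ± 11.2 to 2.82 ± 0.87, and that of GRIN3A to GRIN1 from 0.893 ± 0.208 to 5.39 ± 0.453. These shares depend on the length used. Without any correction for length, GRIN2A took 38.4% and GRIN2D 32.0% of the day 12 controls, so GRIN2A then came first.

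**Figure D3:**
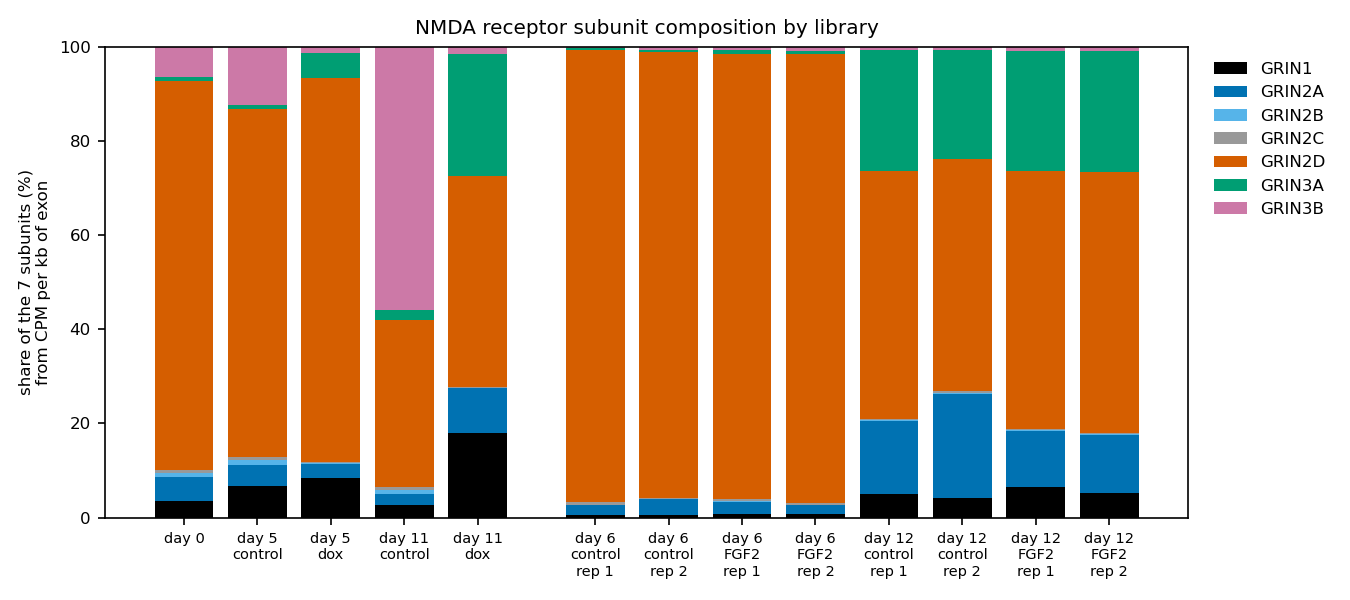
Share of each subunit in the summed CPM per kb of the 7 genes, in percent, for each of the 13 libraries (1 bar per library). GRIN2D fills 94.7 to 96.1% of the day 6 controls and 49.2 to 52.8% of the day 12 controls, and GRIN3B fills 55.9% of the uninduced day 11 library. In that library GRIN3B and GRIN2D had 163 and 161 reads before the correction for length.

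Late FGF2 changed 1 of the 7 subunits, GRIN2A. It stood at 44.7 and 55.8 CPM in the day 12 controls and at 27.1 and 28.9 CPM with late FGF2. Both FGF2 libraries lay below both controls. It fell by 0.84 ± 0.17 on the log2 scale, 1.79-fold, with a 95% interval of -1.20 to -0.48 and an adjusted p of 0.0131. Across all genes 2.17% passed in either direction and 0.536% were lower. In the authors' deposited tables the log2 fold change of GRIN2A was -0.69 by DESeq2 (adjusted p = 1.5e-11) and -0.83 by limma (adjusted p = 6.3e-06). The edgeR call rests on all but 1 of the day 12 libraries. It was lost without late FGF2 replicate 1 (log2 change -0.79, adjusted p = 0.172), without late FGF2 replicate 2 (-0.89, 0.111) and without control replicate 2 (-0.68, 0.281), and kept without control replicate 1 (-0.99, 0.034).

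None of the other 6 subunits passed with late FGF2. GRIN1 stood at 5.88 and 4.91 CPM beside 5.92 and 4.10 CPM in controls, a log2 change of 0.10 (95% interval -0.34 to 0.54). GRIN2D stood at 37.9 and 39.4 CPM beside 46.7 and 37.5 CPM, a log2 change of -0.12 (-0.37 to 0.12). For GRIN3A the levels were 28 and 29 CPM beside 36.2 and 28.3 CPM, and the log2 change was -0.18 (-0.43 to 0.08). The intervals of these 3 genes leave out a change of the size seen for GRIN2A. That was not so for the sparse genes. GRIN2B had 36 reads with FGF2 and 53 without, a log2 change of -0.79 (-1.71 to 0.13). GRIN2C, at 0.243 to 0.512 CPM, had a log2 change of -0.25 (-1.48 to 0.98). GRIN3B, at 0.256 to 0.449 CPM, had 23 reads with FGF2 and 15 without, a ratio of 1.29 with a counting interval of 0.646 to 2.66.

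With late FGF2 the share of GRIN2A among the 7 subunits was 12.2 ± 0.283%, beside 18.9 ± 4.88% in controls. Among the 4 GRIN2 genes alone it was 18.0 ± 0.283% beside 26.8 ± 6.01%, and the ratio of GRIN2D to GRIN2A was 4.53 ± 0.0849 beside 2.82 ± 0.87. The libraries of the 2 groups did not overlap in any of these measures. They are descriptions and were not tested. The pan-neuronal markers summed to 17500 to 18000 CPM with late FGF2 and to 16600 CPM without, and the oligodendrocyte lineage markers to 50.5 and 39.4 to 47.1 CPM. In each of these lists 1 member passed and was higher. NEFL stood at 6180 against 4810 CPM (log2 change 0.36, adjusted p = 0.00728) and OLIG2 at 9.91 against 6.31 CPM (0.65, adjusted p = 0.0155). The median log2 change of the pan-neuronal markers was 0.02. Markers of pluripotent cells summed to 156 to 171 and 137 to 149 CPM, those of dividing cells to 7.94 to 10.4 and 9.61 to 10.8 CPM, and those of astroglia to 1.22 to 2.21 and 1.62 to 1.96 CPM. The neural progenitor markers summed to 1010 to 1090 and 871 to 932 CPM, led by NES and VIM, which did not pass. The 2 members of that list that passed were lower with late FGF2, SOX2 at 45.1 against 66.5 CPM (log2 change -0.56, adjusted p = 7.6e-04) and SOX1 at 0.354 against 2.21 CPM (-2.64, adjusted p = 0.00377). Whether these bear on GRIN2A was not tested.

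Early FGF2 gave no call among the 7 subunits, nor among all genes (0.0% of 20142 by edgeR, 0 also by DESeq2 and by limma voom). At an unadjusted p under 0.05 there were 658 genes, 299 by DESeq2 and 682 by limma voom. GRIN3A was among them in edgeR, at 1.35 and 1.18 CPM with FGF2 and 0.774 and 0.858 CPM without. Its log2 change of 0.64 ± 0.29 had an adjusted p of 0.927. GRIN1, at 1.18 and 1.00 CPM beside 0.860 and 0.687 CPM, had a log2 change of 0.49 and an adjusted p of 0.927. GRIN3B, at 0.520 and 0.481 CPM beside 0.215 and 0.386 CPM, had 28 reads against 14. The ratio was 1.67, with a counting interval of 0.849 to 3.43.

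GRIN2A stood at 10.4 and 6.11 CPM with early FGF2 and at 8.64 and 11.6 CPM without, and the groups overlapped. The log2 change was -0.29 (95% interval -0.73 to 0.16, adjusted p = 0.927). It became -0.72 and passed (adjusted p = 0.0107) without early FGF2 replicate 1, a setting in which 2523 genes passed. Without early FGF2 replicate 2 it was 0.04. GRIN2D had a log2 change of -0.04 (-0.27 to 0.20), GRIN2C had 0.50 (-0.44 to 1.43), and GRIN2B had 3 reads against 1, a ratio of 2.50 with a counting interval of 0.201 to 131.

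The fall of GRIN2A with late FGF2 was not shown to differ from the early effect. The difference of the log2 effects, late minus early, was -0.56 ± 0.27 with an adjusted p of 0.697, and 0 of 7 subunits passed, by edgeR, DESeq2 or limma voom, where 0.73% of all genes did by edgeR. For GRIN3A it was -0.81 ± 0.32 (unadjusted p = 0.0216, adjusted p = 0.555), the 1 subunit with an unadjusted p under 0.05. Without early FGF2 replicate 2 the difference for GRIN2A was -0.88 and passed (adjusted p = 0.0102), and without early FGF2 replicate 1 it was -0.12.

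In the doxycycline set there was 1 library per group and no test, so subunits are described by ratios with counting intervals and counted as different at 4-fold or more, on log2(CPM + 0.25), among genes at 1 CPM or more in either library. At day 0 the stem cells already held GRIN2D mRNA, at 51.2 CPM, which was 82.8% of the 7 subunits per kb. GRIN2A stood at 9.95, GRIN2B at 3.57, GRIN1 at 2.96 and GRIN3B at 2.51 CPM, and GRIN3A and GRIN2C at 0.760 and 0.608 CPM.

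By day 5, doxycycline libraries differed from control at least 4-fold in 3 of 6 measured subunits, where 26.6% of all genes did. All 3 reached 1 CPM in 1 of the 2 libraries only. The count was 0 at 10 CPM or more, where only GRIN2A and GRIN2D were measured. GRIN3A stood at 6.43 CPM with doxycycline and 0.779 CPM without, a ratio of 8.25 (95% counting interval 5.47 to 13). GRIN2B, at 0.411 and 4.55 CPM, was 11.1-fold lower (6.68 to 19.5), and GRIN3B, at 0.677 and 5.86 CPM, was 8.66-fold lower (5.80 to 13.4). The other genes moved less: the ratio was 1.33 for GRIN1, 1.17 for GRIN2D and 0.719 for GRIN2A. GRIN2C, with 18 and 29 reads, was under 1 CPM in both libraries.

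On day 11, 5 of 5 measured subunits were at least 4-fold apart, against 23.3% of all genes. GRIN1, GRIN3A and GRIN3B reached 1 CPM in 1 of the 2 libraries only. GRIN3A stood at 38.2 CPM with doxycycline and 0.452 CPM without, a ratio of 84.6 (51.1 to 152). GRIN1 stood at 21.7 and 0.482 CPM, a ratio of 45.1 (27.6 to 79.3), and GRIN2A at 29.1 and 1.02 CPM, a ratio of 28.4 (20.2 to 41.3). For GRIN2D the levels were 41.0 and 4.85 CPM and the ratio 8.45 (7.18 to 10). GRIN3B, at 0.788 and 4.91 CPM, was 6.23-fold lower (4.10 to 9.83). GRIN2B and GRIN2C were under 1 CPM in both libraries.

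These day 11 ratios were taken against a control that had itself moved. From day 0 to day 11 without doxycycline, 4 of 5 measured subunits were at least 4-fold apart, all lower on day 11, against 6.76% of all genes. The count was 2 with the authors' deposited values or with a pseudocount of 1. It was 1 at 10 CPM or more, where GRIN2D was the only subunit measured. The 6.76% belongs to the main setting, 1 CPM or more. The log2 ratios of GRIN1 (-2.13) and GRIN2B (-2.02) lay close to 4-fold. GRIN1 and GRIN2B reached 1 CPM in the day 0 library only, where they were higher. GRIN2D went from 51.2 to 4.85 CPM, 10.6-fold lower (8.99 to 12.5), and GRIN2A from 9.95 to 1.02 CPM, 9.72-fold lower (6.84 to 14.2). GRIN1 went from 2.96 to 0.482 CPM, 6.15-fold lower, and GRIN2B from 3.57 to 0.693 CPM, 5.15-fold lower. GRIN3B was the exception, at 2.51 and 4.91 CPM. The drop lay between day 5 and day 11, since day 5 controls held 54.0 CPM of GRIN2D and 10.7 CPM of GRIN2A. Set beside day 0 instead, the day 11 doxycycline library held 29.1 against 9.95 CPM of GRIN2A, 21.7 against 2.96 CPM of GRIN1 and 41.0 against 51.2 CPM of GRIN2D.

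Within doxycycline-treated cells, GRIN3A went from 6.43 CPM on day 5 to 38.2 CPM on day 11, a ratio of 5.94 (5.20 to 6.81). It was the 1 of 4 measured subunits past 4-fold, where 2.64% of all genes were. GRIN2A, at 7.66 and 29.1 CPM, had a ratio of 3.80 (3.34 to 4.32), GRIN1, at 8.58 and 21.7 CPM, one of 2.53 (2.23 to 2.88), and GRIN2D, at 63.1 and 41.0 CPM, one of 0.650 (0.608 to 0.694). GRIN2D made up 81.6% of the 7 subunits per kb on day 5 and 44.7% on day 11, GRIN3A 5.22% and 26.1%, GRIN1 8.40% and 17.9%, and GRIN2A 3.02% and 9.68%. In the uninduced day 11 library the 7 genes summed to 2.68 CPM per kb, against 18.0 with doxycycline, and GRIN3B led with 55.9%. GRIN3B and GRIN2D had 163 and 161 reads there, so this lead comes from the correction for length.

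**Figure D4:**
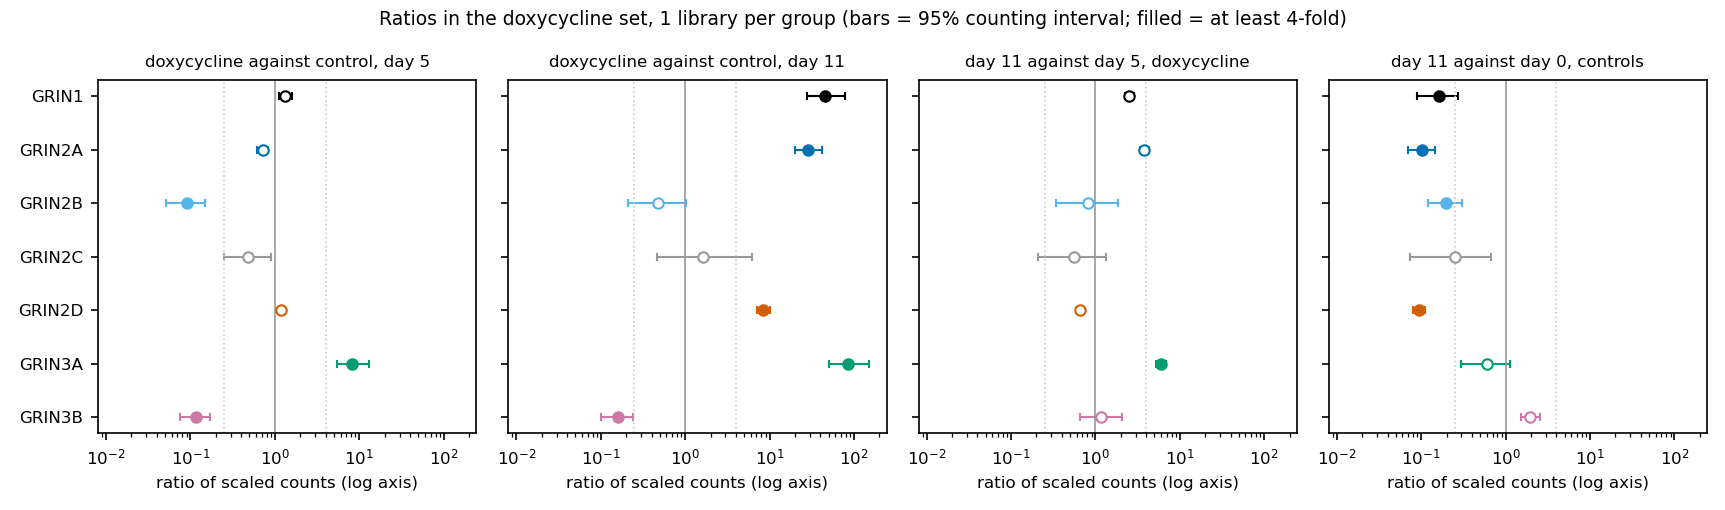
Ratios of scaled counts for the 7 subunits in 4 comparisons of the doxycycline set, on a shared log axis, with 1 library per group; bars are 95% counting intervals, filled points are at least 4-fold apart, and dotted lines mark 4-fold. GRIN3A reaches 84.6 on day 11, and GRIN1, GRIN2A, GRIN2B and GRIN2D lie left of 1 in the comparison of day 11 with day 0 controls.

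The uninduced and induced libraries also differed in their cells. Pluripotency markers summed to 5100 and 1730 CPM in the day 5 and day 11 controls and to 625 and 204 CPM with doxycycline, and markers of dividing cells to 1550 and 1690 CPM against 58.7 and 25.2 CPM. Astroglia markers summed to 1050 and 709 CPM in controls, with S100B at 0 on day 5, and to 23.4 and 14.3 CPM with doxycycline. Neural progenitor markers summed to 708 and 761 CPM in controls, with HES5 at 0 on day 5, and to 1180 and 731 CPM with doxycycline. NES led these sums, at 405 and 209 CPM in controls and 972 and 493 CPM with doxycycline. SOX2 went the other way, at 249 and 306 CPM against 34.7 and 17.5 CPM, as did PAX6 on day 11, at 101 against 4.54 CPM. Oligodendrocyte lineage markers summed to 188 and 83.7 CPM against 49.1 and 50.9 CPM, with SOX10 at 0 in all of these and MOG at 0 in the day 11 doxycycline library. Their part in the subunit ratios was not tested. GRIN3B shares 2.6% of its exon bases with TMEM259 on the opposite strand, and GRIN2B shares 2.6% with noncoding genes. The library kit keeps no strand information, so reads in the shared stretches cannot be told apart. TMEM259 stood at 183 and 94.5 CPM on day 5 without and with doxycycline, and at 91.3 and 98.6 CPM on day 11.

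Promoters are shown for the 2 genes that rose with the smallest adjusted p (GRIN3A and GRIN2A), for GRIN2D, which fell, and for GRIN3B, which was lower with doxycycline. The RefSeq table, built on GRCh38.p14, had entries for 5 of the 7 genes and gives 250 bases before to 50 bases after the start. Each sequence runs 5′ to 3′ on the gene's strand. Capitals mark an E-box, CANNTG, the letters that NEUROG2 and related factors bind, or a GC box, GGGCGG, the letters that SP1 binds, both searched on both strands; the matches shown do not overlap.
GRIN2A promoter, chr16:10182018-10182317, minus strand: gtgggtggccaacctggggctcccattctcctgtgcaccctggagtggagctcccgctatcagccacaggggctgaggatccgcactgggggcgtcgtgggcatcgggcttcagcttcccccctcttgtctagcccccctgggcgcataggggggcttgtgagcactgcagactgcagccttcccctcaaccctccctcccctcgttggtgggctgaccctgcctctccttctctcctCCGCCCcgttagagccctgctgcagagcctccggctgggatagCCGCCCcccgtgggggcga
GRIN3A promoter, chr9:101738598-101738897, minus strand: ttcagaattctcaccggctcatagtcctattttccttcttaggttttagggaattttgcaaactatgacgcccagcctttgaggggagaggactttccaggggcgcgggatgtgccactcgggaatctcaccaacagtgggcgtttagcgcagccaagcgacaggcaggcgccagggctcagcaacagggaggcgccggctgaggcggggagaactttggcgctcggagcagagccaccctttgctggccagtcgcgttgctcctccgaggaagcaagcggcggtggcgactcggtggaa
GRIN2D promoter, chr19:48393418-48393717, plus strand: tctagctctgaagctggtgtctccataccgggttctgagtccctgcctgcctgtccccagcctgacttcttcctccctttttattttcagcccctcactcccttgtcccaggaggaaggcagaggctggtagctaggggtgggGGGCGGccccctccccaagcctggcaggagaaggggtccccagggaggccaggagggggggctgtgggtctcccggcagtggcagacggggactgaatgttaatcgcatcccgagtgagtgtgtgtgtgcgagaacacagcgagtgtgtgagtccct
GRIN3B promoter, chr19:1000169-1000468, plus strand: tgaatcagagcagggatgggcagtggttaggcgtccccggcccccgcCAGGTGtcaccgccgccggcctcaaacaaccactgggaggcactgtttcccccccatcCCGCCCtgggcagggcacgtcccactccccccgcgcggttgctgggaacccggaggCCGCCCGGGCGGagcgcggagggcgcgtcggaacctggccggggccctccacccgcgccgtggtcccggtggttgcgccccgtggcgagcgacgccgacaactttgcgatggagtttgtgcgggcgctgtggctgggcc

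No E-box letters were found in the windows of GRIN2A, GRIN3A and GRIN2D, and 1, CAGGTG, in that of GRIN3B. Each of the 3 GRIN2B windows also held 1. Of all 35116 promoter windows of this length, 68.7% held at least 1. GC box letters occurred 2 times for GRIN2A, 1 time for GRIN2D, 3 times for GRIN3B and 0 times for GRIN3A, and 45.0% of all windows held them. The letters TTCAGCACC, which open the element bound by the repressor REST, were in none of the members' windows and in 0.376% of all. These are matches of letters only.

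Other genes around the receptor were taken from lists by role. Of 11 AMPA, kainate and delta subunits, 9 were higher and 2 lower on day 12 than on day 6, with a median log2 change of 2.03 beside 0.00 over all genes. The counts from day 6 to day 12 in this and the following lists stand beside the 31.7% of all genes that rose and the 32.3% that fell, and nothing particular to a list is read from them. GRIA1, an AMPA receptor subunit, rose by 8.84 ± 0.24, from 0.0644 to 31.7 CPM, and GRIA4 by 3.28 ± 0.10, from 9.10 to 88.4 CPM. With late FGF2, GRIK2 and GRIA1 rose by 0.64 ± 0.10 and 0.55 ± 0.10 and GRIK3 fell by 0.39 ± 0.09, while 8 of 11 did not pass. Across all genes 2.17% passed with late FGF2. GRIA1 thus had a called rise where GRIN2A had a called fall. The difference between them was not tested.

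Of 14 scaffold genes that anchor NMDA receptors at synapses, 11 rose and 1 fell from day 6 to day 12 (median 0.98). SHANK1 rose by 5.51 ± 0.17 and DLG4, which encodes PSD-95, by 0.97 ± 0.08, from 142 ± 2.44 to 278 ± 19.8 CPM. Of 9 transport genes 6 rose and 0 fell, and of 20 kinases, phosphatases and calcium effectors 15 rose and 2 fell. CAMK2A, a calcium-dependent kinase that binds the receptor, rose by 5.45 ± 0.20, from 0.730 to 32.1 CPM, and PTPN5, a phosphatase that acts on GRIN2B, by 2.31 ± 0.09. With late FGF2, 0 of these 43 genes passed by edgeR, DESeq2 or limma voom, and 4, 1 and 5 had an unadjusted p under 0.05. Across all genes 2.17% passed by edgeR, and 2151 of 20142 had an unadjusted p under 0.05. Nothing particular to these genes is read from the counts.

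Of 11 tested genes for glycine and D-serine, 6 fell and 2 rose from day 6 to day 12. PHGDH, which starts serine synthesis, fell by 2.66 ± 0.15, from 66.3 to 10.5 CPM, and the transporter SLC1A5 fell by 4.17 ± 0.16, while the transporter SLC1A4 rose by 1.98 ± 0.09. SLC1A5 rose by 0.92 ± 0.21 with late FGF2, from 1.16 to 2.21 CPM. Of 8 tested transcription regulators linked to NMDA receptor genes, 3 fell from day 6 to day 12, MEF2C by 2.07 ± 0.16, SP1 by 0.65 ± 0.11 and MEF2A by 0.44 ± 0.10, and 0 rose. REST, a repressor of neuronal genes in non-neuronal cells, named after its values were seen, stood at 63.1 CPM on day 0, at 65.4 and 61.9 CPM in the day 5 and day 11 controls, and at 2.25 and 1.94 CPM with doxycycline. Each of these values is from 1 library, and whether REST bears on the subunits was not tested.

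The genes whose pattern over the 13 libraries was most like a subunit's were found among 17226 genes by the root mean square difference of log2(CPM + 0.25), centred within each set. For GRIN3A they were BRINP2 at 0.279, LRRTM3 at 0.295 and HRK at 0.338, where the median gene was at 2.26. BRINP2 stood at 1.05 CPM in day 6 controls and 34.0 CPM in day 12 controls. For GRIN1 they were TMEM59L (0.293), RNF208 (0.349) and LINC00693 (0.354), for GRIN2A DNAJA4 (0.341), ADCY5 (0.413) and TTC9 (0.416), and for GRIN2D EXOC3L1 (0.264), SPATS2L (0.315) and MAP1LC3C (0.348). Among GRIN1, GRIN2A, GRIN2B, GRIN2D and GRIN3A, the subunits compared with each other, GRIN1 and GRIN2A were closest, at 0.554 with a Pearson r of 0.912. GRIN2D had an r of 0.160 with GRIN1 and of -0.230 with GRIN3A. These are descriptions over libraries that share groups and controls.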

How the data were processed

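RNA from 13 libraries was sequenced. The authors deposited raw counts of reads for every gene in both sets, and the submitters' processing notes name featureCounts 1.5.0 and GRCh38. The authors' normalized signal for the doxycycline set served as an alternative only. Their DESeq2 and limma results for the FGF2 set, deposited as log2 fold changes and p-values, are quoted where named; 16 per-sample columns beside them were not used. Aligner settings are not given in the sources used here.

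For the FGF2 set, 1 edgeR 4.0.16 fit (R 4.3.3) covered all 8 libraries, with TMM scaling, filterByExpr, quasi-likelihood F-tests, two-sided, and Benjamini-Hochberg adjustment over 20142 genes. Genes were called at an adjusted p under 0.05. Standard errors and 95% intervals come from the F statistic. The doxycycline set was scaled by TMM over all genes, and log2 ratios use a pseudocount of 0.25 CPM. Counting intervals are 95% exact binomial intervals and cover counting error only. Exon lengths are from GENCODE 29. The fit was tested on simulated data. Alternatives were other scalings, filters, tools (DESeq2 1.42.0, limma 3.58.1), a replicate block and each library left out. All 7 subunits were named and, from each list, up to 3 called genes of smallest p at 1 CPM or more; not all are used here. The subunits and lists were chosen with earlier results of these data known.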

Additional observations from a re-analysis of the deposited data

Results flagged for a closer look

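In the doxycycline set GRIN2A and GRIN1 changed direction between days or between treatments, each ratio with a counting interval clear of 1. With 1 library per group these differences were not tested. GRIN2A was lower with doxycycline than without on day 5 (log2 ratio -0.46, 7.66 against 10.7 CPM) and higher on day 11 (4.53, 29.1 against 1.02 CPM). From day 5 to day 11 GRIN1 was higher with doxycycline (1.32) and lower without it (-3.20). GRIN2A was likewise higher with doxycycline (1.89) and lower without it (-3.10) over that interval.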

How the results depend on the processing

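Of 409 recomputed log2 values of the subunits in the FGF2 set, 390 kept their direction and their side of the threshold, 3 lost a call and 2 gained one, all 5 for GRIN2A with a library left out. The other 14, none of them called, changed sign with a library left out. The ranges there were, for late FGF2, -0.14 to 0.40 for GRIN1, -0.68 to 0.36 for GRIN2C, -0.28 to 0.05 for GRIN2D and -0.35 to 0.02 for GRIN3A. For early FGF2 they were -0.72 to 0.04 for GRIN2A and -0.15 to 0.08 for GRIN2D, for late minus early -0.23 to 0.10 for GRIN2D and -0.84 to 0.00 for GRIN3B, and for day 12 against day 6 -0.31 to 0.52 for GRIN3B. For late FGF2 the number of subunits called was 1, and 0 to 1 with a library left out; the number of all genes called was 437, 656 with no filter on low counts, 1338 with only the libraries compared and 184 to 1188 with a library left out. For early FGF2 it was 0 to 1 subunits and 0 to 2523 genes with a library left out. For late minus early it was 0 to 1 subunits and, of all genes, 147, 268 with no filter and 78 to 1345 with a library left out. The cause was not tested. With the number as a replicate block, subunit calls stayed at 1, 0, 0 and 5, and 598 genes passed with late FGF2; the correlations of replicate differences between groups ran from -0.00128 to 0.327, so the numbers were not taken as a pairing.

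In the doxycycline set, at 10 CPM or more 0 subunits differed 4-fold on day 5 and 1 between day 0 and day 11 controls, since fewer subunits were measured; the latter count was 2 with a pseudocount of 1 and 2 with the authors' deposited values, instead of 4. A pseudocount of 1 also took the count from 3 to 2 for doxycycline on day 5 and from 5 to 4 on day 11. On day 11 the median log2 ratio of all genes was 0.07 with TMM and -0.26 with library totals, and the higher genes made up 48.4% of those past 4-fold, 38.2% with the authors' values; GRIN1, GRIN2A, GRIN2D and GRIN3A stayed higher by at least 4-fold under both. Without length correction GRIN2D held 89.2% of day 6 controls and 32.0% of day 12 controls, GRIN2A 38.4% and GRIN1 3.79%; with the longest transcript GRIN2D held 48.3% and GRIN1 5.66% on day 12. GRIN2B, GRIN2C and GRIN3B rest on 0 to 31 reads per FGF2-set library, which limits what can be detected for them.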

Other observations

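The sets were sequenced and scaled separately, so the following values stand side by side without a comparison. GRIN1 stood at 8.58 CPM on day 5 with doxycycline in the doxycycline set and at 0.773 ± 0.122 CPM in the day 6 controls of the FGF2 set (SD, n = 2). GRIN3A stood at 6.43 and 0.816 ± 0.0599 CPM in the same groups, and GRIN2D at 63.1 and 107 ± 11.9 CPM. Later, GRIN1 stood at 21.7 CPM on day 11 with doxycycline and at 5.01 ± 1.29 CPM in the day 12 controls, GRIN3A at 38.2 and 32.2 ± 5.62 CPM, GRIN2D at 41.0 and 42.1 ± 6.5 CPM, and GRIN2A at 29.1 and 50.3 ± 7.88 CPM. Doxycycline was present to the end in the former and withdrawn after 6 days in the latter. The titles also name the cells of the sets differently.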
